A study of Mus musculus with 12 samples.

Results

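The genes described here are 10 effectors, targets and regulators of the canonical Wnt pathway in mouse embryonic stem cells in which Tet1 or Tet2 had been knocked down. They are the ligand genes Wnt3 and Wnt8a, the feedback inhibitor genes Axin2, Dkk1 and Nkd1, the transcription factor genes Lef1, Tcf7, Tcf7l1 and Tcf7l2, and the target gene Sp5. They were chosen by symbol, through the Ensembl gene IDs of the deposited tables, and all 10 were found among the 36521 genes listed in both tables. The choice was made with earlier results of these data known, so shares of all genes stand beside their counts as description only. RNA sequencing covered 3 groups of 4 libraries, which the labels call biological replicates. Tet1kd cells were V6.5 cells with a stable short hairpin RNA against Tet1, Tet2kd cells were V6.5 cells with one against Tet2, and parental cells were V6.5 cells with no knockdown. V6.5 is an embryonic stem cell line, grown here in medium with serum and leukemia inhibitory factor, and the TET proteins are enzymes that oxidize 5-methylcytosine in DNA. The hairpin vectors (pSUPER-puro) were electroporated, cells were selected with puromycin on inactivated SNL76/7-4 feeder cells, and single clones were picked. No group with a control hairpin is among the samples, and the labels do not say how many clones a knockdown's libraries represent. The knockdown cannot be told apart from the vector, from selection or from the properties of a clone. Both knockdowns were compared with the same 4 parental libraries.

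In the canonical Wnt pathway a secreted ligand binds a Frizzled receptor and an LRP co-receptor, which stops the destruction complex of AXIN, APC and GSK3 from marking β-catenin for degradation. Stable β-catenin enters the nucleus and binds the TCF/LEF family of DNA-binding proteins, which then activate target genes. Axin2 and Sp5 are direct targets in many cell types, and AXIN2, DKK1 and NKD1 restrain the signal that induces them. In mouse embryonic stem cells TCF7L1 acts mainly as a repressor, including of pluripotency genes, and β-catenin relieves that repression.

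TCF/LEF proteins bind DNA that holds the letters CTTTGA or CTTTGT, so the start-site windows of the genes were read for these letters. Each window below runs from 250 bases before to 50 bases after a RefSeq transcript start, 5′ to 3′ on the strand of the gene (RefSeq, build GRCm38.p6). Capitals mark every CTTTGA or CTTTGT on either strand (TCAAAG or ACAAAG where the match is on the other strand), and no base is shared between 2 matches. Sp5, Wnt3, Axin2 and Tcf7l1 are shown because they were lower in Tet1kd cells, and 2 of the 4 Lef1 windows because Lef1 was higher.
Sp5 (chr2:70474673-70474972, plus strand): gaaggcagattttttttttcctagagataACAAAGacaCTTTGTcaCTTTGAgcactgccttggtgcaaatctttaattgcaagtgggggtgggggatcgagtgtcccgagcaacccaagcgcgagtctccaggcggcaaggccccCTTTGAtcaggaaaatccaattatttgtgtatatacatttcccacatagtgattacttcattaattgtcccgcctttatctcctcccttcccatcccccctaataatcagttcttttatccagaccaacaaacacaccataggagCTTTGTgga
Wnt3 (chr11:103773925-103774224, plus strand): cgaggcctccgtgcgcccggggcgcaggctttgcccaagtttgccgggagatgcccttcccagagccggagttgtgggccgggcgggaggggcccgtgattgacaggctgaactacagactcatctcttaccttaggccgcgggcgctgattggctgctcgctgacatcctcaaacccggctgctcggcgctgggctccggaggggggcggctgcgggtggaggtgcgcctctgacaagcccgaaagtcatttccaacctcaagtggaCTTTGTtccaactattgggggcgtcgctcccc
Axin2 (chr11:108920099-108920398, plus strand): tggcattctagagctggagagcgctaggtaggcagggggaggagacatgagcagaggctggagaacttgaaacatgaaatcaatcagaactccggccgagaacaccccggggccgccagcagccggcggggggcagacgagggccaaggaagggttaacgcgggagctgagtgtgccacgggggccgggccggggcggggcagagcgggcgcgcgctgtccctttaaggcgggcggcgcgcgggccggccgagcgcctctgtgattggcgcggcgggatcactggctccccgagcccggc
Tcf7l1 (chr6:72788996-72789295, minus strand): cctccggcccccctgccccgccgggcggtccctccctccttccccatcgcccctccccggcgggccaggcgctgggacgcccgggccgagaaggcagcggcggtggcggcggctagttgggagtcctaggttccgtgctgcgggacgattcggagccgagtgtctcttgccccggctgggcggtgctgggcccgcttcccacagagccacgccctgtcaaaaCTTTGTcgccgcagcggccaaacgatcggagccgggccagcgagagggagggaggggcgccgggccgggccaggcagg
Lef1, upstream start (chr3:131110047-131110346, plus strand): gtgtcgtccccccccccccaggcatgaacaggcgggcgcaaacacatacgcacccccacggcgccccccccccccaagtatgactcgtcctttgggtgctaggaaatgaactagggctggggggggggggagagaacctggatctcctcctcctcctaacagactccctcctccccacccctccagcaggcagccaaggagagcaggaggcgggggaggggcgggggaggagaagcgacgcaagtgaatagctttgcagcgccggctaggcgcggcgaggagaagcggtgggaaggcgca
Lef1, internal start (chr3:131156044-131156343, plus strand): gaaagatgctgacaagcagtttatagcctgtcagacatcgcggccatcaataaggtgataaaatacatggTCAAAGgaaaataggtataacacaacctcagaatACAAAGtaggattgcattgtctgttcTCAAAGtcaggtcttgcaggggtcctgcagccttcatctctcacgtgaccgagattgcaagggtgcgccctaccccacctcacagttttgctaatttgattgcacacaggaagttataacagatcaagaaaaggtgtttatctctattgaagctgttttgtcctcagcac
The Sp5 window held 5 matches, which begin 221, 212, 204 and 104 bases before the start and 42 bases after it. At least 5 matches were present in 12 of 32851 RefSeq start windows (0.0365%). The internal Lef1 window held 3 matches, as did the window of Dkk1, and at least 3 were present in 1.14% of all windows. The windows of Wnt3 and Tcf7l1 held 1 match each, as did the internal of the 2 Tcf7l2 windows. No match lay in the windows of Axin2, Nkd1 or Tcf7, in the upstream Tcf7l2 window or in the other 3 Lef1 windows. Either motif was present in 31.2% of all windows (CTTTGA in 16%, CTTTGT in 18.7%). A match describes these letters only and shows neither binding nor its absence. Windows were read for 9 of the 10 genes (14 windows), and that of Wnt8a was not used here.

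The targeted genes were low in their own knockdown. Tet1 stood at 6859.9 ± 722 normalized reads in Tet1kd cells and 27235 ± 2261 in parental cells (SD, n = 4 each), which is 25.2% of the parental mean. Tet2 stood at 50.9% of the parental mean in Tet2kd cells, with a log2 ratio of -0.97 and an adjusted p of 3.08e-30 in the authors' deposited table. The other TET genes were higher in Tet1kd cells, Tet3 at 177% and Tet2 at 118% of the parental mean (adjusted p = 6.45e-09 and 0.0186, authors' deposited table). In Tet2kd cells Tet1 and Tet3 did not pass (adjusted p = 0.104 and 0.976, authors' deposited table). The files hold group means, and the values per library used here were recovered from them as whole reads. Recovered libraries carry the letters a to d by depth, because nothing ties them to the numbered replicates. The Tet1kd values of Tet1 were settled only by preferring libraries within 20% of the mean, so their spread leans small. Depth was estimated at 15.9 to 39.7 M reads in Tet1kd libraries and 14.4 to 31.1 M in Tet2kd libraries, and recovered reads came to 14.6 to 31.6 M in parental libraries. Of 10 genes that mark embryonic stem cells, 5 rose and 1 fell in Tet1kd cells, and none lay below a normalized read count of 10 in any group. Of 10 fibroblast genes that could mark feeder cells, 9 fell in Tet1kd cells, where their summed mean was 3284, against 5386 in parental cells. In Tet2kd cells 3 of these fibroblast genes rose and 2 fell, and their summed mean was 6596 against the same parental value. Dcn and Lum lay below 10 in Tet1kd cells. Of all genes, 15.2% were called higher and 15.3% lower for Tet1kd, and 3.85% and 3.29% for Tet2kd. In bulk RNA fewer cells of a type and less RNA per cell cannot be told apart.

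Knockdown of Tet1 came with a change in 8 of the 10 genes, in both directions. Both ligand genes, Axin2, Sp5 and Tcf7l1 fell in Tet1kd cells, and Lef1, Tcf7 and Tcf7l2 rose. In Tet2kd cells 3 of the 10 genes rose, namely Sp5, Lef1 and Tcf7l1, and none fell. The call used throughout is the first adjusted p of the authors' deposited table under 0.05. By that rule 30.4% of all 23120 genes tested were called for Tet1kd (15.2% higher, 15.3% lower) and 7.14% of 22949 for Tet2kd (3.85% higher, 3.29% lower). Among the 10996 genes with a mean of at least 100, 2801 rose and 2658 fell in Tet1kd cells. In Tet2kd cells 739 of 10808 such genes rose and 639 fell. With the second deposited test 8 and 3 of the 10 genes were called (39.2% and 18.2% of all genes), and with limma on the recovered libraries 8 and 2 (54.4% and 19.3% of 14618 genes). The libraries of Tet1kd and parental cells did not overlap for the same 8 genes (48.7% of 14665 genes with recovered libraries), and those of Tet2kd and parental cells did not overlap for 3 genes (23.1% of 14754). Without overlap, the direction of a called gene is necessarily the same in any subset of libraries, so such subsets add no support. Within the 2 deeper and the 2 shallower libraries of each group, the log2 ratio of Sp5 was -3.74 and -3.12 for Tet1kd. For Tet2kd it was 0.68 and 1.03. The median log2 ratio of the 10 genes was -0.71 for Tet1kd and 0.07 for Tet2kd, beside -0.03 and -0.01 over all genes tested. Normalized read counts are reads divided by the library's size factor, given on the scale of the Tet1kd table, and folds and log2 ratios are those of each deposited table.

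**Figure D1:**
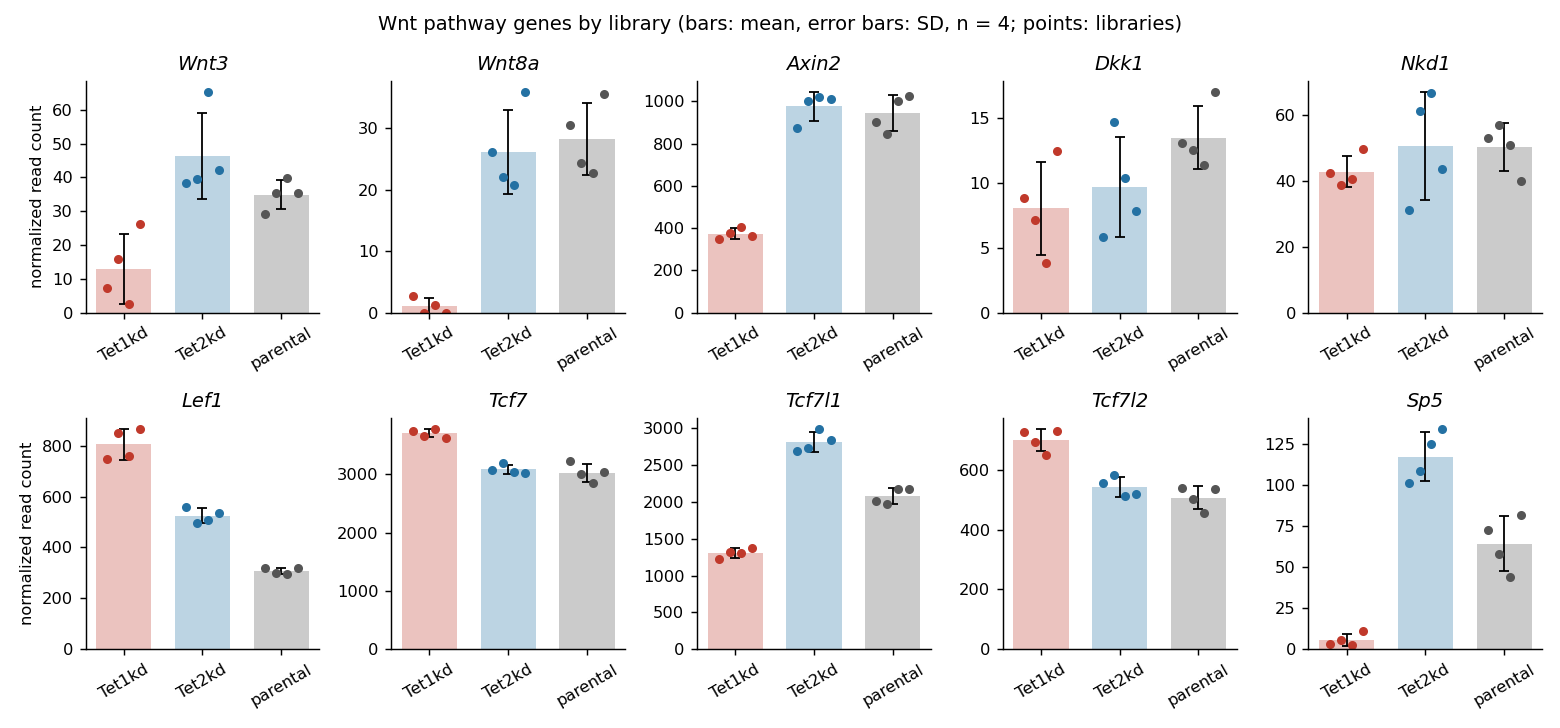
Normalized read counts of the 10 Wnt pathway genes in Tet1kd, Tet2kd and parental libraries, 1 panel a gene with its own axis from 0. Bars are means, error bars SDs (n = 4) and points the recovered libraries. Sp5 and Wnt8a are near 0 in every Tet1kd library, Lef1 is in 3 separate steps, and Dkk1 and Nkd1 overlap between all groups.

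The ligand genes were among those that fell most. Wnt8a (ENSMUSG00000012282, chromosome 18) encodes a ligand expressed in the early primitive streak. Its normalized read count was 2.76, 0, 1.27 and 0 in Tet1kd libraries a to d, 26.0, 22.0, 20.8 and 35.9 in Tet2kd libraries, and 30.5, 24.3, 22.7 and 35.5 in parental libraries. These values rest on 5, 0, 1 and 0 reads in the Tet1kd libraries. Every Tet1kd library lay far below every library of the other groups, while the Tet2kd and parental libraries covered the same range. The mean in Tet1kd cells was 3.56% of the parental mean, with a log2 ratio of -4.81 (adjusted p = 5.97e-11, authors' deposited table). The counting interval was -5.89 to -3.25 (95%, counting error only). It belongs to the ratio of summed reads per summed size factor, not to the deposited ratio of means. With limma the difference was -4.69, and between -5.21 (without Tet1kd library a) and -4.31 (without library b or d) when single libraries were left out. In Tet2kd cells the log2 ratio of the authors' deposited table was -0.11 (adjusted p = 1), with a counting interval of -0.53 to 0.28.

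Wnt3 (ENSMUSG00000000125, chromosome 11) encodes the ligand that is needed for the primitive streak to form. Its normalized read count was 7.17, 15.9, 2.53 and 26.2 in Tet1kd libraries, 38.3, 39.5, 65.2 and 42.1 in Tet2kd libraries, and 29.1, 35.2, 39.7 and 35.5 in parental libraries. All 4 Tet1kd libraries lay below the lowest parental one, and they differed among themselves more than those of any other called gene except Wnt8a, with a coefficient of variation of 80.6% against 12.5% in parental cells. The authors' deposited table gave a log2 ratio of -1.43 for Tet1kd (adjusted p = 0.000622) and 0.41 for Tet2kd (adjusted p = 0.64). The size of the Tet1kd difference varied with single libraries. The limma log2 difference was -1.81 with all of them, -2.28 without Tet1kd library d and -1.23 without library c, with adjusted p-values of 0.00596, 0.000594 and 0.0105. In Tet2kd cells library c was the high one, and libraries a and b lay within the parental range.

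Axin2 (ENSMUSG00000000142, chromosome 11), a scaffold of the destruction complex and a widely used readout of the pathway, was lower in Tet1kd cells. Its normalized read count was 349, 375, 407 and 363 in Tet1kd libraries, 874, 999, 1020.0 and 1009 in Tet2kd libraries, and 901, 846, 1000.0 and 1027 in parental libraries. The Tet1kd libraries formed a narrow band below all others. Their mean of 373 ± 24.7 was 39.6% of the parental mean of 944 ± 84.5 (SD, n = 4 each), a log2 ratio of -1.34 (adjusted p = 3.91e-32, authors' deposited table). In Tet2kd cells the log2 ratio was 0.05 (adjusted p = 0.935, authors' deposited table), with a counting interval of -0.01 to 0.12.

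The remaining inhibitor genes did not pass the test. Dkk1 (ENSMUSG00000024868, chromosome 19), a secreted protein that binds LRP co-receptors, stood at 8.83, 7.13, 3.80 and 12.4 in Tet1kd libraries, 5.79, 14.7, 10.4 and 7.79 in Tet2kd libraries, and 13.1, 12.5, 11.3 and 17.0 in parental libraries (normalized read counts). Only 37, 36 and 53 reads were summed over the Tet1kd, Tet2kd and parental libraries. The log2 ratio of the authors' deposited table was -0.74 for Tet1kd (adjusted p = 0.43) and -0.48 for Tet2kd (adjusted p = 0.838), and counting intervals of -1.36 to -0.08 and -1.13 to 0.16 leave a wide range at this depth. Nkd1 (ENSMUSG00000031661, chromosome 8), which binds Dishevelled, averaged 42.9 ± 4.76 in Tet1kd cells, 50.7 ± 16.4 in Tet2kd cells and 50.3 ± 7.26 in parental cells (normalized read counts, SD, n = 4 each), and all 3 groups overlapped. Its log2 ratio in the authors' deposited table was -0.23 for Tet1kd (adjusted p = 0.522) and 0.01 for Tet2kd (adjusted p = 1).

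Sp5 (ENSMUSG00000075304, chromosome 2) encodes a zinc finger factor of the SP family that is induced by Wnt signals, and its window above holds the most TCF/LEF letters of the windows read. It was the gene with the widest span between the knockdowns after Wnt8a. The normalized read count was 3.31, 5.55, 2.53 and 11.0 in Tet1kd libraries, 101, 108, 125 and 134 in Tet2kd libraries, and 72.6, 58.0, 43.9 and 81.8 in parental libraries. Every Tet1kd library lay below, and every Tet2kd library above, all parental libraries. The mean in Tet1kd cells was 8.75% of the parental mean (log2 ratio -3.51, adjusted p = 3.63e-15, authors' deposited table), and that in Tet2kd cells was 183% of it (log2 ratio 0.87, adjusted p = 0.00335, authors' deposited table). In limma on the recovered libraries the Tet2kd difference was 0.89 ± 0.35 on the log2 scale (SE) with an adjusted p of 0.0851, and of 0.0369 with the deeper and shallower library pairs as a block, so this call depended on the test and its design.

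All 4 TCF/LEF genes changed in Tet1kd cells, 3 upward and 1 downward. Lef1 (ENSMUSG00000027985, chromosome 3) encodes the family member most often tied to activation of targets. Its normalized read count was 747, 849, 759 and 866 in Tet1kd libraries, 559, 496, 507 and 536 in Tet2kd libraries, and 317, 298, 296 and 319.6 in parental libraries. The groups did not overlap at any point, with Tet1kd highest and parental lowest. The log2 ratio was 1.39 for Tet1kd (262% of the parental mean, adjusted p = 3.74e-32) and 0.77 for Tet2kd (171%, adjusted p = 8.9e-09) in the authors' deposited table. Of the 10 genes, Lef1 alone passed the test as higher in both knockdowns.

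Tcf7l1 (ENSMUSG00000055799, chromosome 6), the repressor of the family in these cells, moved in opposite directions. Its normalized read count was 1222, 1316, 1304 and 1379.7 in Tet1kd libraries, 2691, 2726, 2993 and 2847 in Tet2kd libraries, and 2014, 1967, 2169 and 2177 in parental libraries. The Tet1kd libraries all lay below and the Tet2kd libraries all above the parental ones. The Tet2kd values of Tcf7l1 were settled only by preferring libraries within 60% of the mean. The authors' deposited table gave a log2 ratio of -0.67 for Tet1kd (62.7% of the parental mean, adjusted p = 4.86e-12) and 0.44 for Tet2kd (135%, adjusted p = 2.18e-05).

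The fall of Tcf7l1 in Tet1kd cells was shared by the genes around it. Of the 20 nearest genes with a mean of at least 100 (10 on each side), 17 fell in Tet1kd cells and none rose, with a median log2 ratio of -0.97. The nearest on each side were Tgoln1, a protein of the trans-Golgi network, with a log2 ratio of -1.05, and Kcmf1, a ubiquitin ligase, with -1.35 (adjusted p = 2.67e-26 and 2.28e-20, authors' deposited table). In Tet2kd cells 1 of the 20 fell, none rose, and the median was -0.01, while Tcf7l1 itself rose. For the other 9 members between 2 and 7 of 20 neighbours fell in Tet1kd cells, and their medians lay between -0.18 and 0.22. Next to Sp5 on chromosome 2, Gad1, which encodes an enzyme of GABA synthesis, had a log2 ratio of -3.33 for Tet1kd and 0.53 for Tet2kd (adjusted p = 1.77e-34 and 0.00145, authors' deposited table). Gad1 was singled out after its values were seen. The part of the chromosomal surroundings in the values of Tcf7l1 and Sp5 was not tested.

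**Figure D2:**
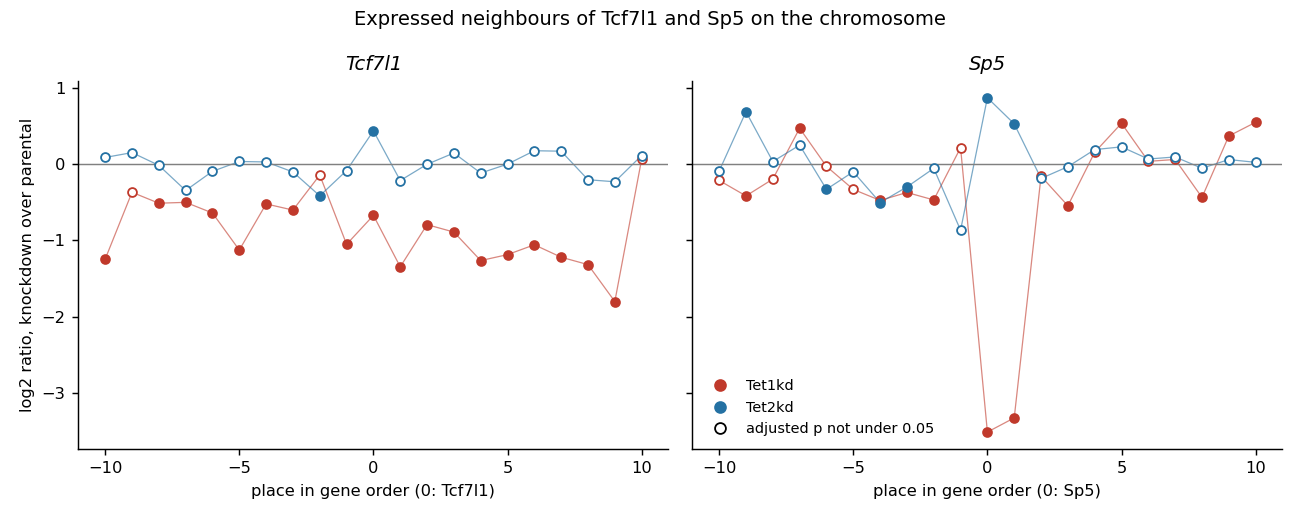
Log2 ratio, knockdown over parental, of Tcf7l1 (left) and Sp5 (right) and of 10 expressed genes on each side, in the order of genes on the chromosome (0 is the named gene). Red is Tet1kd and blue Tet2kd, each against parental, and open circles mark an adjusted p of 0.05 or more. Around Tcf7l1 17 of 20 neighbours are lower in Tet1kd cells, while next to Sp5 only Gad1 shares its large fall.

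Tcf7l2 and Tcf7 rose by less. Tcf7l2 (ENSMUSG00000024985, chromosome 19), a main partner of β-catenin in the gut, had normalized read counts of 727, 692, 650.0 and 729.8 in Tet1kd libraries, 556, 582, 511 and 518 in Tet2kd libraries, and 538, 501, 455 and 534 in parental libraries. The Tet1kd libraries lay above all others, and the Tet2kd and parental libraries overlapped. The log2 ratio was 0.46 for Tet1kd (adjusted p = 0.000128) and 0.10 for Tet2kd (adjusted p = 0.774) in the authors' deposited table. Tcf7 (ENSMUSG00000000782, chromosome 11) encodes TCF1, known from T cells and an activator of targets in embryonic stem cells. Its normalized read count was 3743, 3659.6, 3783 and 3633 in Tet1kd libraries, 3075, 3198, 3047 and 3021 in Tet2kd libraries, and 3226, 3004, 2849 and 3038.5 in parental libraries. The step in Tet1kd cells was small, yet each of these libraries lay above every other library, with a fold of 1.22 (log2 ratio 0.29, adjusted p = 0.00554, authors' deposited table). For Tet2kd the log2 ratio of Tcf7 was 0.03 (adjusted p = 1, authors' deposited table). The Tet1kd values of Tcf7 were settled only by preferring libraries within 20% of the mean, so their spread leans small. Its Tet2kd values were settled within 60% of the mean. An antisense gene, A630014C17Rik, overlaps Tcf7 with a mean normalized read count of 8.4 over the Tet1kd and parental libraries, and the sources used here do not say whether reads were counted by strand.

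**Figure D3:**
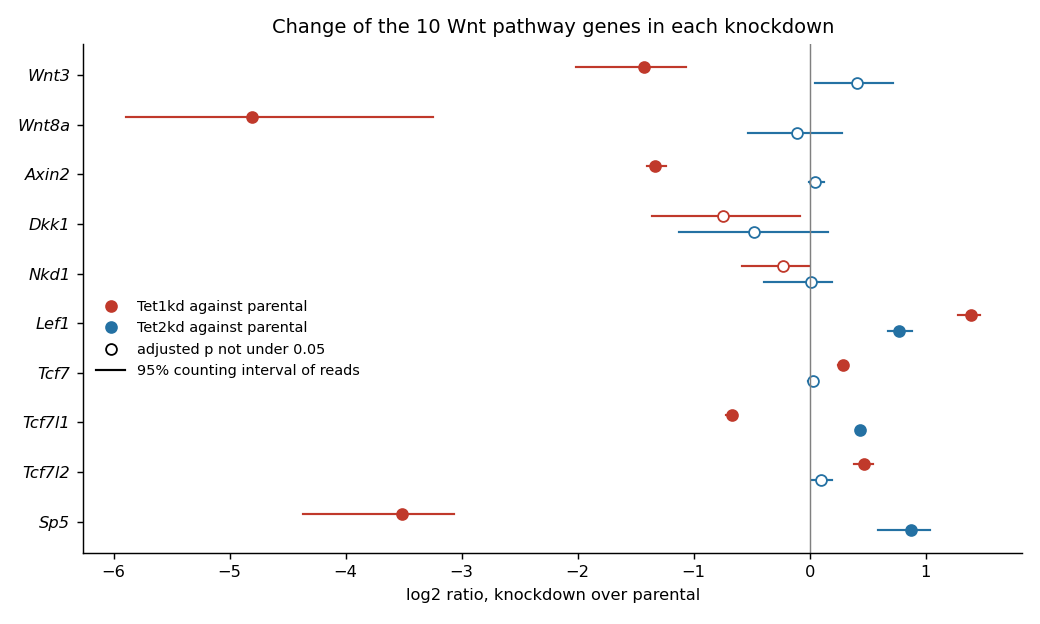
Log2 ratio, knockdown over parental, of the 10 genes as in the deposited tables, with Tet1kd in red above Tet2kd in blue. Filled circles passed an adjusted p of 0.05. Lines are 95% counting intervals of the ratio of summed reads per summed size factor, not of the deposited ratio. They leave out the spread between libraries. Wnt8a and Sp5 lie at -4.81 and -3.51 for Tet1kd, and Sp5 and Tcf7l1 lie on opposite sides of 0 in the 2 knockdowns.

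The knockdowns also differed from each other. No deposited table compares them, so the recovered libraries were tested with limma on the log2 scale over 14618 genes (mean of at least 10), of which 50.8% were called (25.6% higher and 25.2% lower in Tet1kd). Of the 10 genes 8 differed, 3 higher and 5 lower in Tet1kd than in Tet2kd cells. Wnt8a differed by -4.57 ± 0.56, Sp5 by -4.45 ± 0.35, Wnt3 by -2.18 ± 0.49, Axin2 by -1.38 ± 0.08 and Tcf7l1 by -1.11 ± 0.06 (Tet1kd minus Tet2kd, SE, limma), with adjusted p-values between 6.37e-10 and 0.00174. On the other side Lef1 differed by 0.62 ± 0.07, Tcf7l2 by 0.37 ± 0.08 and Tcf7 by 0.26 ± 0.04 (SE, limma), with adjusted p-values of 5.75e-06, 0.000821 and 0.000166. Thus the rise of Lef1 was larger in Tet1kd than in Tet2kd cells. The Tet2kd values of Tcf7 and Tcf7l1 were settled only by preferring libraries within 60% of the mean. Those of Tcf7 in Tet1kd cells needed 20%, so the SEs and adjusted p-values of these genes may lean small. Dkk1 (-0.28 ± 0.42, adjusted p = 0.611) and Nkd1 (-0.18 ± 0.23, adjusted p = 0.531) did not pass limma.

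Levels of the 10 genes were set side by side as normalized reads per kb of exon. In parental cells Tcf7 stood highest at 1154 ± 59.0, followed by Tcf7l1 at 530 ± 27.3 and Axin2 at 171 ± 15.3 (normalized reads per kb, SD, n = 4). Tcf7l2 was at 57.8 ± 4.38, while Lef1 at 35.0 ± 1.43 and Sp5 at 30.5 ± 7.93 did not differ beyond their spread. Wnt8a at 16.2 ± 3.39 came next, then Wnt3 at 11.3 ± 1.42 and Nkd1 at 11.0 ± 1.59, which did not differ beyond their spread, and Dkk1 was lowest at 5.55 ± 1.01. In Tet1kd cells Tcf7 (1411 ± 26.8) and Tcf7l1 (333 ± 16.5) kept the top places in normalized reads per kb. There Lef1 at 91.6 ± 6.95 and Tcf7l2 at 79.7 ± 4.25 stood above Axin2 at 67.8 ± 4.49, and Wnt8a was lowest at 0.576 ± 0.751. Sp5 at 2.67 ± 1.83, Dkk1 at 3.31 ± 1.48 and Wnt3 at 4.21 ± 3.39 did not differ beyond their spread in Tet1kd cells (normalized reads per kb). In Tet2kd cells Sp5 at 55.7 ± 7.12 lay beside Lef1 at 59.7 ± 3.25 and Tcf7l2 at 61.7 ± 3.79, and their spreads overlapped (normalized reads per kb, SD, n = 4).

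The genes whose pattern over the 12 libraries was most like a member's were sought among 10527 expressed genes, by Pearson's r of log2 values. Most like Wnt8a was Tnfaip2 (r = 0.984, n = 12), with a log2 ratio of -2.24 for Tet1kd and -0.14 for Tet2kd in the authors' deposited table. Most like Sp5 was Nt5c3 (r = 0.988, n = 12), with -1.08 and 0.36 in the authors' deposited table. Among the 10 genes themselves Sp5 was most like Tcf7l1 (r = 0.955), and Axin2 was least like Tcf7 (r = -0.940). The gene most like Axin2 was Postn (r = 0.994), one of the fibroblast genes listed above, with a log2 ratio of -1.20 for Tet1kd and 0.08 for Tet2kd in the authors' deposited table. Postn was singled out after its values were seen, and the part of feeder cells in the fall of Axin2 was not tested. All of these correlations rest on 3 groups, whose differences they share, and on the same libraries.

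Exon use of the 10 genes showed no call. Their genes were cut into 158 bins, of which 117 were tested for Tet1kd and 116 for Tet2kd, and 0 of either passed the adjusted p of 0.05 in the authors' deposited table (DEXSeq), where 2.56% and 2.45% of all bins tested did. At an unadjusted p under 0.05 there were 12 bins (10.3%) for Tet1kd, beside 14% of all bins, and 8 bins (6.9%) for Tet2kd, beside 13.6%. The lowest adjusted p for Tet1kd was 0.0738, in bin 5 of Tcf7, and for Tet2kd 0.17, in bin 6 of Tcf7l1. Neither of the 2 Sp5 bins has a p in the Tet1kd table, although 1 of them had a mean of 33.4 normalized reads, and both were tested for Tet2kd.

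Beyond the 10 genes, 114 other genes of the pathway were listed by role, and 107 were tested in each comparison. In Tet1kd cells 25 rose, 29 fell and 53 did not pass (30.4% of all genes were called). In Tet2kd cells 11 rose, 6 fell and 90 did not pass (7.14% of all genes were called). Genes with a mean of at least 100 were called more often than all genes. For Tet1kd 2801 of 10996 such genes rose and 2658 fell, and for Tet2kd 739 of 10808 rose and 639 fell. The other 7 listed genes were not analysed here.

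Of 17 further Wnt ligand genes 7 fell and none rose in Tet1kd cells, while 0 of 17 passed in Tet2kd cells. Of all genes, 15.3% were called lower for Tet1kd and 7.14% were called for Tet2kd. At an adjusted p of 0.01 (authors' deposited table), 3 of the 7 remained, Wnt3a, Wnt4 and Wnt5b, and of the other 4 Wnt2b and Wnt7a rest on 2 and 5 reads in Tet1kd cells. Wnt3a, a canonical ligand, had no read in any of the 4 Tet1kd libraries, against 28.5 ± 5.91 normalized reads in parental cells (SD, n = 4), at least 9.54-fold lower with a floor of 3 reads per library (adjusted p = 9.23e-16, authors' deposited table). Wnt4 (log2 ratio -1.41) and Wnt5b (-0.98) fell as well in the authors' deposited table. Both genes that prepare ligands for export fell in Tet1kd cells, Porcn, which acylates them, with -1.03 and Wls, their carrier, with -1.01 (authors' deposited table). Neither passed for Tet2kd, with -0.23 and 0.23.

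Among 14 receptor and co-receptor genes 5 rose and 1 fell in Tet1kd cells, and 3 rose and 2 fell in Tet2kd cells. Beside these and the R-spondin counts below, 30.4% of all genes were called for Tet1kd (15.2% higher, 15.3% lower). For Tet2kd the share was 7.14%. Fzd9 (1.34) and Fzd4 (0.94) rose and Fzd2 (-1.35) fell in Tet1kd cells, and Fzd2 rose in Tet2kd cells (0.50), as log2 ratios of the authors' deposited table. In the R-spondin branch, which keeps receptors at the cell surface, 3 of 9 genes rose in Tet1kd cells, namely Rspo4 (2.40), Rnf43 (1.64) and Lgr6 (1.18), none fell, and 1 of 9 rose in Tet2kd cells (log2 ratios of the authors' deposited table). Rspo4 and Rnf43 had fewer than 30 normalized reads in each group. Of the 3, RNF43 is an inhibitor that removes receptors.

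Secreted antagonists split in Tet1kd cells, with 3 of 15 higher and 4 lower, and 2 were higher in Tet2kd cells. Of all genes, 15.2% were called higher and 15.3% lower for Tet1kd, and 3.85% higher for Tet2kd. Sfrp1, which binds Wnt proteins, rose with a log2 ratio of 1.38 in Tet1kd cells and 0.30 in Tet2kd cells, and Dkk3, a member of the Dickkopf family, with 1.71 and 0.46 (authors' deposited table). Wif1, another Wnt-binding protein, fell in Tet1kd cells with -3.99 on 7 reads over 4 libraries, against 81 reads in parental libraries (adjusted p = 4.81e-07, authors' deposited table).

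Of 15 cytoplasmic genes 4 rose and 1 fell in Tet1kd cells, with Nkd2, a relative of Nkd1, at 1.01, the kinase gene Csnk1e at 0.43 and Axin1 at -0.30, and 1 fell in Tet2kd cells (log2 ratios of the authors' deposited table). Of 13 nuclear cofactors 4 rose and 3 fell in Tet1kd cells, and 2 rose and 1 fell in Tet2kd cells. Beside the counts of both lists, 30.4% of all genes were called for Tet1kd (15.2% higher, 15.3% lower) and 7.14% for Tet2kd. The corepressor gene Tle4 fell in both (-0.51 and -0.44), while Tle3 (0.59) rose and Pygo2, a coactivator, fell (-0.54) in Tet1kd cells (log2 ratios of the authors' deposited table). The largest fall of this list was that of its relative Pygo1 in Tet1kd cells, with a log2 ratio of -1.30 (adjusted p = 3.15e-07, authors' deposited table), named here after its value was seen.

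Other known Wnt targets were mostly lower in Tet1kd cells, where 11 of 16 fell and 3 rose, with a median log2 ratio of -1.53. Over all genes tested 15.3% were called lower and 15.2% higher for Tet1kd, and the median was -0.03. Cdx1, a homeobox gene, stood at 28.7 in Tet1kd cells and 648 in parental cells (deposited mean normalized read counts), a log2 ratio of -4.50 (adjusted p = 2.77e-125, authors' deposited table). T, the Brachyury gene of the primitive streak, had -3.63, the growth regulator Myc -2.61 and the adhesion gene Cd44 -1.63 (log2 ratios for Tet1kd, authors' deposited table, each past the test). In Tet2kd cells 3 of 16 targets rose and 2 fell (3.85% and 3.29% of all genes). T rose there (0.87), as Sp5 did, while Cdx1 (-0.83) and Myc (-0.29) fell (log2 ratios of the authors' deposited table). Of 6 primitive streak and mesoderm marker genes, T among them, 2 rose and 1 fell in Tet1kd cells, and Eomes rose (0.79) where T fell (authors' deposited table). The summed level of that list was 779.9 in Tet1kd cells and 585 in parental cells (normalized read counts). Most of that sum was Eomes, at 709 and 410, while T stood at 11.1 and 137, so the sum does not describe the list as a set. Of 4 neural marker genes 2 fell in Tet1kd cells (15.3% of all genes were called lower), and none of the 4 passed in Tet2kd cells. The summed mean of the neural genes was 119.7 in Tet1kd cells against 544 in parental cells (normalized read counts). Most of that sum was Nes, at 101 and 413, and Pax6 stood at 7.19 and 122. Nes and Pax6 were the 2 that fell, and 2 of the 5 listed genes lay below 10 in parental cells. The neural sum therefore does not describe its list as a set. Of 5 primitive endoderm marker genes 2 fell in each knockdown and none rose (15.3% of all genes were called lower for Tet1kd and 3.29% for Tet2kd). Their summed mean was 181 in Tet1kd cells and 198 in Tet2kd cells, against 348 in parental cells (normalized read counts), and Gata6 had log2 ratios of -1.81 and -1.54 (authors' deposited table). The part of neural or endoderm cells in the values of the Wnt genes was not tested. Of 6 genes known as repressed by TCF7L1 in embryonic stem cells, 3 rose in Tet1kd cells and none fell. Beside this, 15.2% of all genes were called higher, and 2801 of the 10996 genes with a mean of at least 100. The 3 were Klf2 (0.98), Tbx3 (0.66) and Nanog (0.33), while Esrrb (0.16), Nr0b1 (-0.01) and Nr5a2 (-0.19) did not pass (log2 ratios of the authors' deposited table). Nanog had an adjusted p of 0.0214 in the authors' deposited table and did not pass at 0.01. None of the 6 passed in Tet2kd cells, and the part of Tcf7l1 in these values was not tested.

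**Figure D4:**
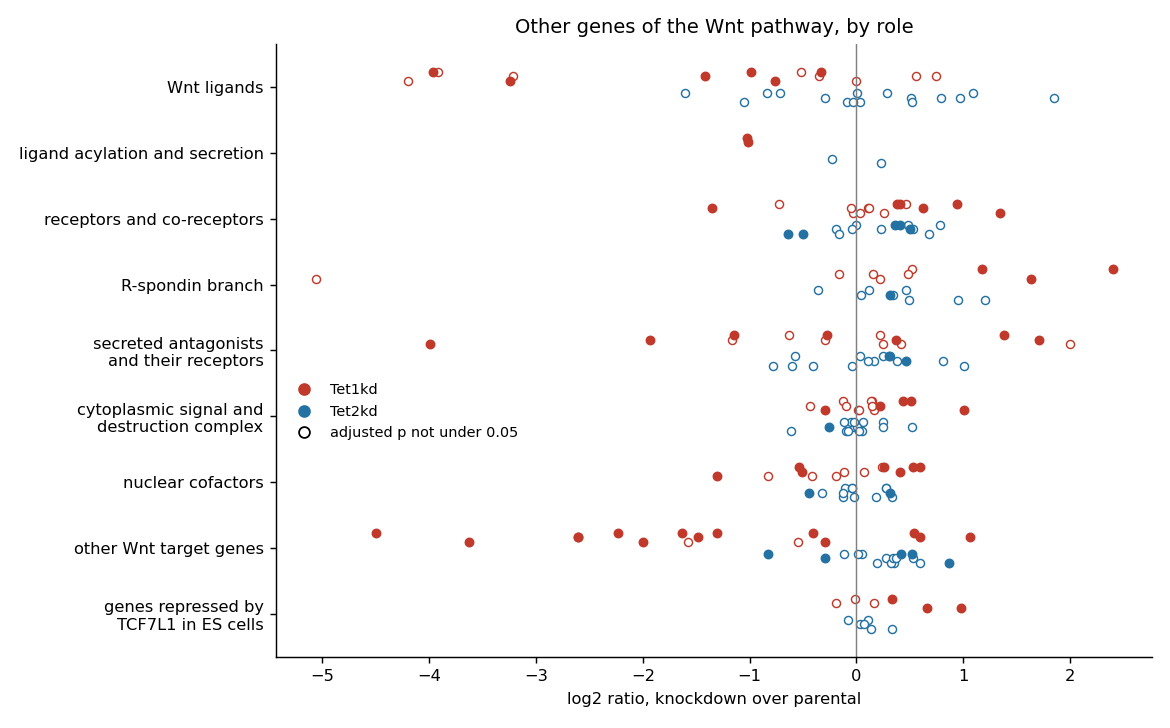
Log2 ratio, knockdown over parental, of the other Wnt pathway genes by role, with Tet1kd in red above Tet2kd in blue. Filled circles passed an adjusted p of 0.05 and points are spread vertically only for sight. Tested genes without reads in 1 group (4 for Tet1kd, Wnt3a among them, and 1 for Tet2kd) are not drawn, and most other target genes lie left of 0 in Tet1kd cells.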

How the data were processed

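Poly(A)-selected RNA was sequenced on the SOLiD platform. Per the submitters' processing notes, TopHat2 (version 2.0.0), SAMtools (version 0.1.18) and DESeq were used, on builds mm9 and NCBIM37. The authors deposited, per the file headers, mean signals (normalized counts) of each group, a ratio (fold) and its log2 value, and p-values of 2 tests. For exon bins they deposited a mean signal, a log2 ratio (untreated over treated, not printed here), p-values and a dispersion score.

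Whole reads of each library were recovered from the deposited means, which take only certain values. Of genes with reads, 22004 of 22004 were settled in parental, 21237 of 21658 in Tet1kd and 21039 of 21368 in Tet2kd libraries. Where parental genes were solved from the Tet1kd table alone, 21563 of 21564 answers equalled those from both tables. The recovered values entered limma 3.58.1 under R 4.3.3 as log2(normalized count + 0.5), with Benjamini-Hochberg adjustment. A mean of at least 10 was required. The limma step alone was tested on simulated counts of independent libraries. That simulation held neither the recovery of reads nor deviations shared by libraries, so it does not cover them. Exon lengths, gene order and chromosomes come from GENCODE M21, a newer build than the files', so no gene coordinates from it are given.

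The 10 genes and the lists were chosen with earlier results of these data known. From each list up to 3 genes with the smallest deposited adjusted p over both comparisons are named, and those changed at least 4-fold with a mean of at least 100. The most alike gene is named for the gene with the largest change in each comparison. Alternatives were the second deposited p-value, a threshold of 0.01, limma with pseudocounts of 1 and 5, no filter or a mean of at least 50, TMM scaling, each library left out, and a block for library batch, meaning the 2 deeper (a, b) and the 2 shallower libraries (c, d) of each group. This pairing came from depth, not from the labels. Deviations from the group means correlated at 0.42 to 0.61 within it across groups. They cancel within a group, so the -0.57 to -0.42 found otherwise follows from the first range and is no separate observation. Intervals are those of the ratio of summed reads per summed size factor, not of the deposited ratio of means, and cover counting error only.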

Additional observations from a re-analysis of the deposited data

Results flagged for a closer look

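In 2 of 30 sets of 4 libraries (10 genes in 3 groups) 1 library stood far from the others relative to the range of its group, and chance flags about 1 in 20 such sets. Wnt3 had a normalized read count of 65.2 in Tet2kd library c, where the other 3 Tet2kd libraries lay between 38.3 and 42.1. Axin2 had 874 in Tet2kd library a, where the other 3 lay between 999 and 1020.0. Neither gene passed the test for Tet2kd against parental.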

How the results depend on the processing

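The number of the 10 genes called for Tet1kd was 8 in all alternatives run, except for 6 under limma with a mean of at least 50, where Wnt3 and Wnt8a were among the genes filtered out. Without each library in turn it was 8 to 8. For Tet2kd it was 3 with both deposited tests, at 0.01, with a pseudocount of 5 and with the replicate block for library batch, and 2 under the other limma settings, since Sp5 had an adjusted p of 0.0851 (0.0369 with the block). Leaving out each library gave 2 to 3. The count that differed between the knockdowns was 8 (6 with a mean of at least 50, 8 to 8 without each library, 8 with the block). No exon bin was called under any alternative. Of the other pathway genes 54 were called for Tet1kd, 72 by the second deposited test and 41 at 0.01. For Tet2kd 17 were called, 37 by the second test and 11 at 0.01. Among the role lists a threshold of 0.01 lowered some Tet1kd calls. Of genes that fell it left 3 ligands, 2 antagonists and 10 targets. Of genes that rose it left 2 antagonists, 3 cytoplasmic genes, 3 nuclear cofactors, 1 target and 2 genes repressed by TCF7L1. For Tet2kd, of genes that rose, 2 receptor genes, 1 antagonist and 1 nuclear cofactor were left. Of those that fell, 1 receptor gene, 1 target and no cytoplasmic gene were left. The other counts of these lists did not change. Over all genes limma called 2828 for Tet2kd, and 5178 with the block.

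Some values near 0 that passed no test changed sign. The log2 ratio of Nkd1 for Tet2kd was -0.038 with limma (also with no filter and with the block), -0.040 with TMM scaling, -0.037 with a pseudocount of 1 and -0.031 with a pseudocount of 5, against 0.01 as deposited, and -0.19 to 0.17 without each library. That of Axin2 for Tet2kd was -0.0015 to 0.10, that of Tcf7 for Tet2kd -0.0018 to 0.058, and the difference of Dkk1 between the knockdowns -0.52 to 0.014, each without 1 library. The cause was not tested. Depth limits Wnt3, Wnt8a and Dkk1, which rest on few reads in Tet1kd cells.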
